A study of Mus musculus with 28 samples.

Results

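The regions described here are 961 binding sites of the retinoid X receptor (RXR) that were called in osteocyte-like cells treated with 1,25(OH)2D3 (1,25D3, the active vitamin D hormone), that overlapped no RXR peak of vehicle-treated cells, and that held no vitamin D receptor (VDR) site called in both replicates. "Without VDR" is used below in this sense, so that it does not exclude a VDR peak of 1 replicate. They were 14.2% of the 6783 RXR sites found with the hormone. A site was an RXR peak of replicate 1 overlapping an RXR peak of replicate 2 by at least 1 bp, the pair merged. Sites were then selected on the called lists alone: no overlap with a peak of either vehicle RXR list and none with the 1218 VDR sites that both hormone replicates called. Without the VDR condition, 1303 RXR sites (19.2%) had no vehicle peak.

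IDG-SW3 is an immortalised mouse bone cell line that carries a Dmp1-GFP transgene, is expanded with interferon gamma, and takes on osteocyte features at a higher temperature in mineralizing medium without interferon gamma. RXR and VDR were profiled by chromatin immunoprecipitation with sequencing (ChIP-seq) at day 35, after 3 h of 100 nM 1,25D3 or of vehicle, with 2 biological replicates of each. Cells not treated with the hormone gave 9 histone marks at day 3 and at day 35, with 1 library per mark and day, so no difference between days has a replicate check. All groups are 1 cell line, and the marks were measured without the hormone.

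The RXR lists held 10333 and 7635 peaks with 1,25D3, against 6875 and 4093 with vehicle, and the VDR lists 1618 and 1333 peaks with 1,25D3. The labels and files state no read depth, so that sites with no vehicle counterpart cannot be told apart from the greater length of the hormone lists. With each hormone list limited to as many top-scoring peaks as its vehicle list, 134 sites met the rule in place of 961. With the lists of 1 replicate alone, 3370 sites (without replicate 1) and 3508 sites (without replicate 2) met it. The names of replicate 2 libraries carry an index tag that replicate 1 names lack. The labelled cell type was checked by H3K27Ac, a mark of active promoters and enhancers, over gene bodies at day 35: it reached 8 of 9 osteocyte markers (76.4% of Dmp1 and 65.8% of Mepe, but 13% of Phex and 0% of Sost) and 84.2% to 100% of each of 6 osteoblast genes. Of other cell types, 0 of 2 myogenic, 1 of 2 neural (0% and 0.119%) and 2 of 3 endothelial markers (0% to 9.97%) had any coverage. Among the 2 adipocyte markers Adipoq had 0% and Fabp4 45.6%. All 5 haematopoietic and osteoclast markers had some, 2.72% to 100%, with 51.5% of Spi1 and 100% of Ctsk. The part of such cells in the results was not tested.

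RXR is the shared partner of many nuclear receptors, among them the receptors for vitamin D, retinoic acid, thyroid hormone, oxysterols and fatty acids. These pairs bind DNA at direct repeats of a hexamer close to AGGTCA, and the spacing between the hexamers helps to set which partner binds: VDR and RXR classically use a repeat spaced by 3 bases (DR3), retinoic acid receptors use DR5 and DR2, thyroid hormone and oxysterol receptors DR4, and PPARs DR1. In bone cells 1,25D3 acts through VDR and RXR at enhancers that are often far from the regulated gene.

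A minority of the sites, 101 of 961, overlapped a VDR peak that a single hormone replicate called and that therefore was no VDR site by the rule. Their 4 best-ranked members with a DR3 show what such an element looks like (this set was picked after the values had been seen). Each line gives the nearest gene, the mm9 position and the strand as read from the NCBIM37 genome, written 5′ to 3′, with the 2 hexamers in capitals and the spacer between them in lower case. The repeat here is a looser form of the hexamer, in which the first base may be A or G, the third G or T and the fifth C or G, with at most 1 mismatch over 12 bases.
Irf2bp2, DR3, chr8:129272316-129272370, minus strand: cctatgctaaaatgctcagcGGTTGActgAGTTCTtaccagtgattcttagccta
Efcab2, DR3, chr1:180336821-180336875, minus strand: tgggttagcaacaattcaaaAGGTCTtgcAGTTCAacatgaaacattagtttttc
N6amt1, DR3, chr16:86772947-86773001, minus strand: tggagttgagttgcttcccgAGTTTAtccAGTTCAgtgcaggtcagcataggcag
S1pr3, DR3, chr13:51408765-51408819, minus strand: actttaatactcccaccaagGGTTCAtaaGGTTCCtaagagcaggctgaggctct

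For comparison, elements in the same form are given for hormone-only RXR sites that did hold a VDR site. They come from the 2 best-ranked of those sites that also held a looser DR3. Their RXR scores were 50.8 and 35.4 at Pla2g4a and 24.8 and 25.7 at Wdr81 in replicates 1 and 2, above every score of the 961 sites. The 2 sites were picked by this score and for holding a looser DR3, so both traits describe the choice. Medians over all hormone-only sites with VDR were 10.0 and 10.2. Both sets were picked for a looser DR3, so the spacing of 3 bases and the limit of 1 mismatch follow from the choice. The likeness of the 2 sets in these respects is therefore no result.
Pla2g4a, DR3, chr1:151661385-151661439, minus strand: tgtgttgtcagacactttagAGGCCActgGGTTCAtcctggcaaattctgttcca
Wdr81, DR3, chr11:75274017-75274071, plus strand: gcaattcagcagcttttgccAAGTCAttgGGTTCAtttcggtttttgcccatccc

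The 5 best-ranked of the 961 sites with any AGGTCA direct repeat of spacing 0 to 8 and at most 2 mismatches held no strict DR3, and they show how mixed the repeats were. Capitals mark the hexamers. Where a site held several repeats, 1 with the fewest mismatches is printed, so that a DR1 at Ilvbl and a DR2 and a DR4 at Klf9 are not shown.
Ilvbl, DR0, chr10:78037286-78037337, plus strand: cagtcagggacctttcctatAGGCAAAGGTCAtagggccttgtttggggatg
Tmem40, DR5, chr6:115680825-115680881, minus strand: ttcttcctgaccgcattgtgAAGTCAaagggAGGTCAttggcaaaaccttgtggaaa
Klf9, DR0, chr19:23129018-23129069, plus strand: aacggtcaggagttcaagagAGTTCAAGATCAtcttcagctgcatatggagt
Col4a2, DR1, chr8:11249853-11249905, plus strand: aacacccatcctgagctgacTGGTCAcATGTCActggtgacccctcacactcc
Hace1, DR4, chr10:45603687-45603742, minus strand: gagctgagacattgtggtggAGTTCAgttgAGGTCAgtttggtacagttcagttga

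A more frequent feature of the sites was the AP-1 motif, searched as TGANTCA with any base at N. The motif takes in the element bound by Fos and Jun proteins, but it also counts forms such as TGAATCA, as at Irf2bp2. Its form at the 5 best-ranked sites that held it is printed with the motif in capitals. The Irf2bp2, Hace1 and N6amt1 sites appear above with a direct repeat as well.
Irf2bp2, AP-1, chr8:129272369-129272415, plus strand: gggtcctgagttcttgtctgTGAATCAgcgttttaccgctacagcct
Cx3cl1, AP-1, chr8:97312229-97312275, plus strand: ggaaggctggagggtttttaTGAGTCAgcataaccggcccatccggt
Hace1, AP-1, chr10:45603758-45603804, plus strand: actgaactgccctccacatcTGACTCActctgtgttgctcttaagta
Casq1, AP-1, chr1:174159438-174159484, plus strand: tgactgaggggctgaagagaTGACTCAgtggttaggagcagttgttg
N6amt1, AP-1, chr16:86773013-86773059, plus strand: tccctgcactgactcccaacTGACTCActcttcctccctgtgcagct

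The sites were weak RXR peaks by the score that the authors deposited for each peak, which has no stated scale and serves here to rank peaks within a list. The score belongs to the same lists that chose the sites, so these values describe the choice and support nothing else. Scores ran from 2.3 to 15.7 in replicate 1 (median 6.8) and from 4.0 to 15.7 in replicate 2 (median 7.6). The median site stood at percentile 30.9 of the replicate 1 list and 26.1 of the replicate 2 list, and the best reached rank 839 of 10333 and 746 of 7635. Hormone-only RXR sites with VDR had median scores of 10.0 and 10.2 (percentiles 71.1 and 63.4), and RXR sites also called in vehicle without VDR 9.6 and 9.6 (67.5 and 57.9). Both replicates therefore placed the hormone-only sites without VDR lowest of the classes.

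**Figure D1:**
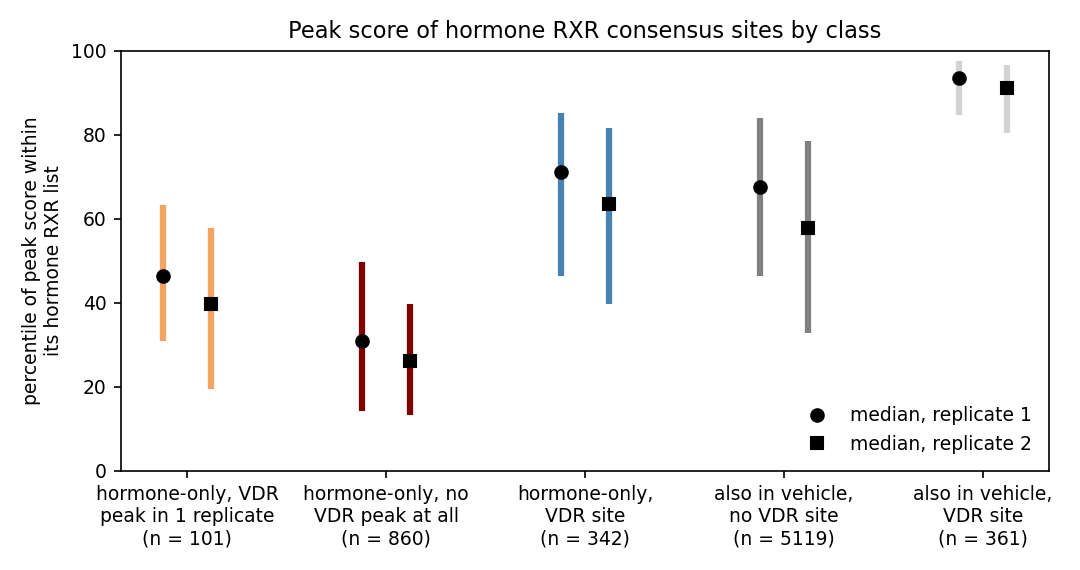
Percentile of the peak score within its own hormone RXR list (y axis, percent) for classes of RXR site (x axis, with the number of sites); points are the median of replicate 1 (circle) and replicate 2 (square), and bars span the lower to the upper quartile over sites. The 860 hormone-only sites with no VDR peak at all sit lowest in both replicates, and the 101 with a VDR peak in 1 replicate lie between them and the other classes.

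Along the score range the class thinned steadily. In the lowest decile of all 6783 sites by mean percentile, 45.8% of sites (95% Wilson interval 42.1 to 49.6, which like all intervals given here covers counting error alone) were hormone-only sites without VDR. The share was 10.8% in decile 5, 1.77% in decile 8 and 0% in the highest. In all, 886 of the 961 (92.2%) lay in the lower-scoring 50% of RXR sites. Hormone-only sites with VDR ranged between 2.95% of the lowest decile and 6.78% of decile 9. Scores of the 2 replicates were weakly related over the 961 sites (Spearman 0.28, n = 961 sites of the same 2 libraries) and more strongly over all 6783 (0.72). The 961 sites span a narrower range of scores, so the 2 coefficients are not on the same footing.

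**Figure D2:**
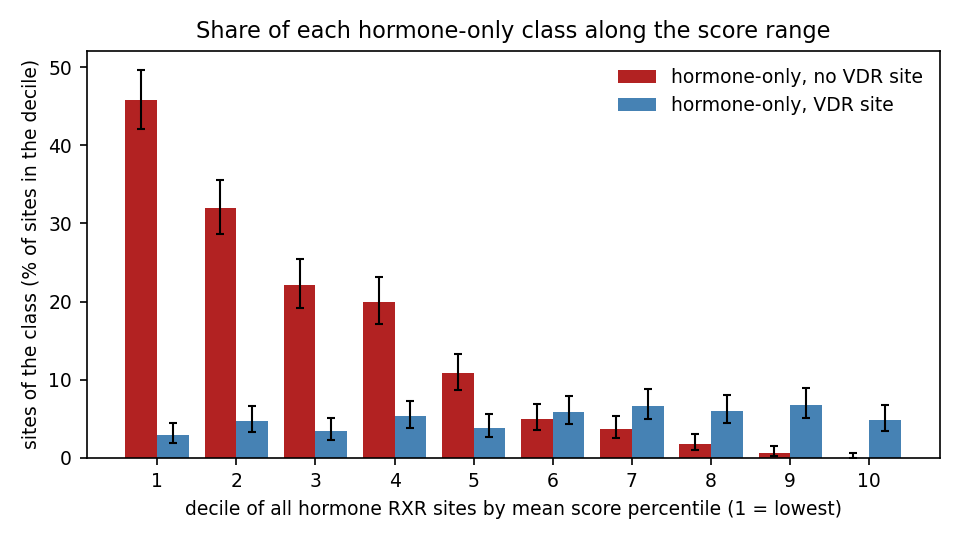
Share of hormone-only RXR sites without VDR (red) and with VDR (blue) among the sites of each decile of the score range (x axis, decile of all 6783 sites by mean score percentile; y axis, percent of sites in the decile); bars carry 95% Wilson intervals. The red share is 45.8% in the lowest decile and 0% in the highest.

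Few sites sat at the edge of the rule by distance, whereas the number of sites depended strongly on which vehicle peaks counted. The member nearest to a vehicle peak lay 71 bp from it (Tmem154, scores 10.7 and 11.0), and 43 lay within 1 kb. The smallest vehicle overlap that excluded a site was 38 bp (near Phlda1, scores 5.5 and 5.9). On the VDR side, the nearest member lay 34 bp from a VDR site (near Tbpl1, 5.5 and 5.7), 6 lay within 1 kb, and the smallest excluding overlap was 117 bp. The median distance was 39.4 kb to the nearest vehicle RXR peak and 379 kb to the nearest VDR site. Of the vehicle-called RXR sites free of VDR, 1929 of 5119 (37.7%) overlapped a peak of a single vehicle list, and 2894 sites would meet the rule if only consensus vehicle sites counted.

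The VDR peaks at the 101 sites were called mostly in replicate 1, at 85 sites, and in replicate 2 at 16. They were low in their own lists: scores were 4.9 to 10.7 (median 7.2) in replicate 1, whose list median was 9.9, and 5.9 to 11.9 (median 8.15) in replicate 2, with a list median of 11.9. A VDR peak in 1 replicate was found at 10.5% of the sites (8.73 to 12.6), against 3.52% of vehicle-called RXR sites without VDR and 4.14% of all RXR sites. Among the 134 sites left by hormone lists of vehicle length it was 25.4%. RXR scores at the 101 sites (medians 7.7 and 8.3) were above the medians of the whole class. None of the 961 sites overlapped a VDR peak of vehicle-treated cells. The rule used the hormone VDR lists, so the split by a VDR peak in 1 replicate is a description. Sequence and histone marks, below, were not used by the rule.

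The chromatin of the sites carried active marks in cells not given the hormone, at both days. At day 35 H3K27Ac covered 94.9% of the sites (93.3 to 96.1), close to the 95% of all RXR sites, against 81% of hormone-only sites with VDR (a difference of 13.9 percentage points, 95% Newcombe interval 9.79 to 18.6) and 96.0% of vehicle-called sites without VDR (a difference of -1.13 points, -2.79 to 0.214). At day 3 the H3K27Ac share was 89.3% (87.2 to 91.1; 90.3% of all RXR sites), against 71.1% of hormone-only sites with VDR. In these single libraries the H3K27Ac shares thus lay above those of hormone-only sites with VDR and within a few points of vehicle-called sites.

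The same order held for the other acetyl marks. H4K5Ac covered 96.9% of the sites at day 35, against 87.1% of those with VDR and 97% of vehicle-called sites. H3K9Ac covered 73.4%, against 54.7% of those with VDR and 76.5% of vehicle-called sites. In untreated cells of day 35, 20 of the 961 sites (2.08%) carried none of the 3 acetyl marks. The share was 10.8% of hormone-only sites with VDR and 2.09% of vehicle-called sites without VDR. H3K27Ac at both days was found at 88.0% of the sites, at day 35 alone at 6.87% and at neither day at 3.85%. Hormone-only sites with VDR had H3K27Ac at both days in 66.7% of cases and at neither in 14.6%. For vehicle-called sites without VDR these shares were 90.9% and 3.01%, near those of the 961 sites.

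Methylation of H3K4 marked them as enhancers more often than as promoters. H3K4me1, a mark of enhancers, covered 98.3% at day 35 and 97.1% at day 3, against 98.9% and 97.7% of all RXR sites. H3K4me2 covered 86.2% at day 35, against 59.9% of hormone-only sites with VDR, a difference of 26.2 points (20.7 to 31.9) and the widest among the 9 marks at that day. H3K4me3, a promoter mark, covered 9.89% at day 35 and 13.7% at day 3, against 7.84% and 11.6% of all RXR sites. The combination of H3K4me1 and H3K27Ac without H3K4me3 was present at 84.5% of the sites at day 35 (82.1 to 86.6), against 75.7% of those with VDR and 88.4% of vehicle-called sites.

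**Figure D3:**
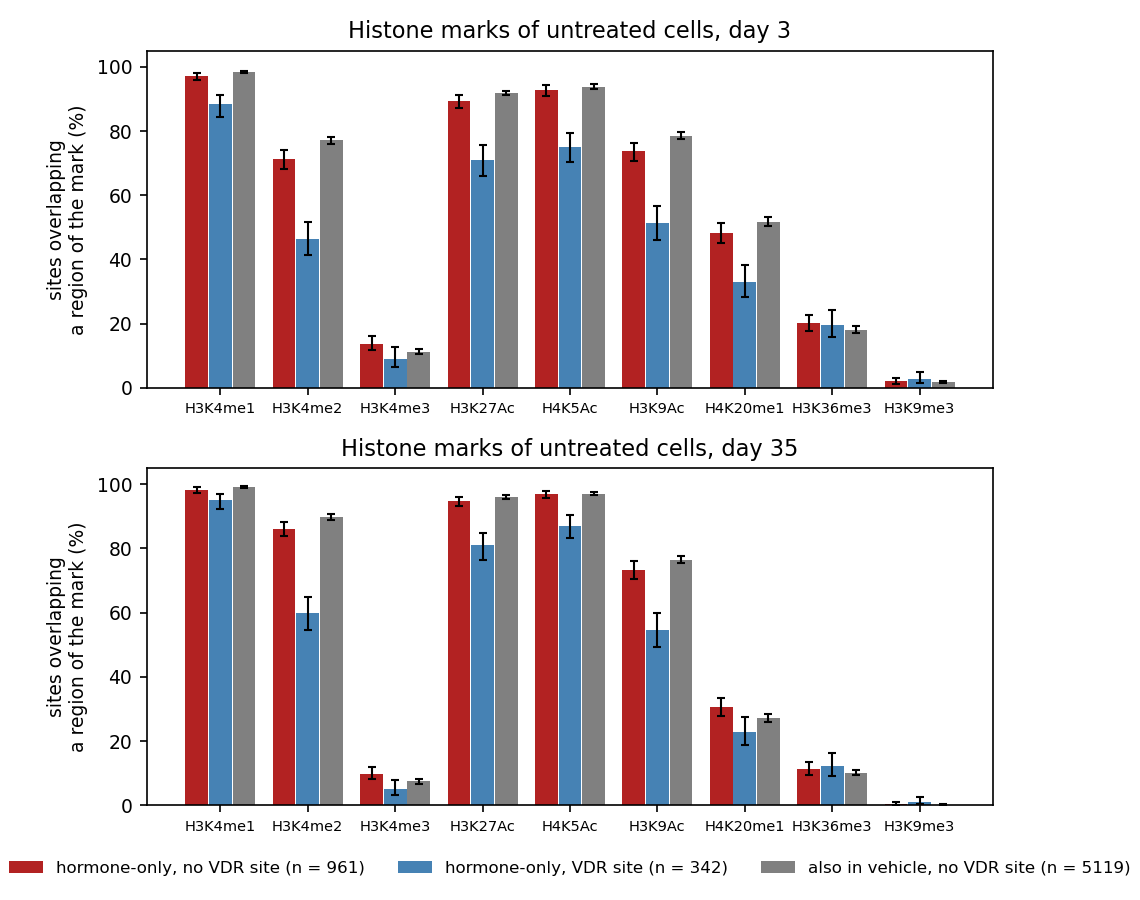
Share of sites overlapping a called region of each of 9 histone marks (x axis) in untreated cells at day 3 (top) and day 35 (bottom), in percent with 95% Wilson intervals, for hormone-only RXR sites without VDR (red), with VDR (blue) and vehicle-called RXR sites without VDR (grey). The red bars stand beside the grey ones for the acetyl marks and H3K4me2 and above the blue ones.

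Marks of gene bodies and of silent chromatin were scarcer. These shares lay near those of all RXR sites. H4K20me1 covered 30.5% of the sites at day 35 and 48.3% at day 3, against 27.6% and 50.4% of all RXR sites. H3K36me3, which follows transcription through gene bodies, covered 11.3% and 20.2%, against 10.5% and 18.5% of all RXR sites. H3K9me3, found in silent chromatin, was at 0.312% of the sites at day 35 and at 1.98% at day 3, against 0.28% and 1.96% of all RXR sites. The 101 sites with a VDR peak in 1 replicate carried H3K27Ac at 93.1% at day 35, as the other 860 did at 95.1%, but H3K4me2 at 72.3% against 87.8%. A day-35 H3K27Ac region that also held a vehicle-called RXR site contained 17.6% of the sites, against 14.9% of hormone-only sites with VDR (a difference of 2.67 points, -2.07 to 6.9). One that held a VDR site contained 3.43%, against 4.06% of vehicle-called sites without VDR (-0.629 points, -1.76 to 0.812). Within the lower-scoring 50% of RXR sites, a comparison added after the data had been seen, H3K27Ac at day 35 covered 95.4% of 886 hormone-only sites without VDR, against 78.1% of 137 with VDR and 95.1% of 2345 vehicle-called sites, so that the gap to the sites with VDR was found among weak sites too.

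Direct repeats were searched on both strands in 200 bp around each site centre, and in 200 bp windows 2 kb to either side as a local background. The strict DR3 (2 AGGTCA hexamers with at most 2 mismatches) was present at 6.76% of the sites (5.34 to 8.53), against 21.9% of hormone-only sites with VDR, 3.65% of vehicle-called sites without VDR, 5.79% of all RXR sites and 1.77% of the flanking windows. The looser DR3, added after the data had been seen, was present at 12.1% (10.2 to 14.3), against 58.8% of those with VDR, 6.06% of vehicle-called sites, 11% of all RXR sites and 3.38% of flanks. The difference in looser DR3 was -46.7 points from hormone-only sites with VDR (-52.1 to -41) and 6.01 points from vehicle-called sites (3.98 to 8.31). Among the 134 sites left by hormone lists of vehicle length, the strict DR3 share was 12.7%.

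Of the 116 sites with a looser DR3, 46 were among the 101 with a VDR peak in 1 replicate. Of these 101, 45.5% held the looser DR3 and 18.8% the strict one, against 8.14% and 5.35% of the 860 with no VDR peak at all. With every RXR site that overlapped a peak of any VDR list counted as having VDR, the looser DR3 share was thus 8.14% (6.49 to 10.2), against 5.83% of the 4938 vehicle-called sites that remained (5.21 to 6.52). In the lower-scoring 50% of RXR sites the looser DR3 shares were 11.7% of the hormone-only sites without VDR, 56.2% of those with VDR and 5.16% of vehicle-called sites.

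**Figure D4:**
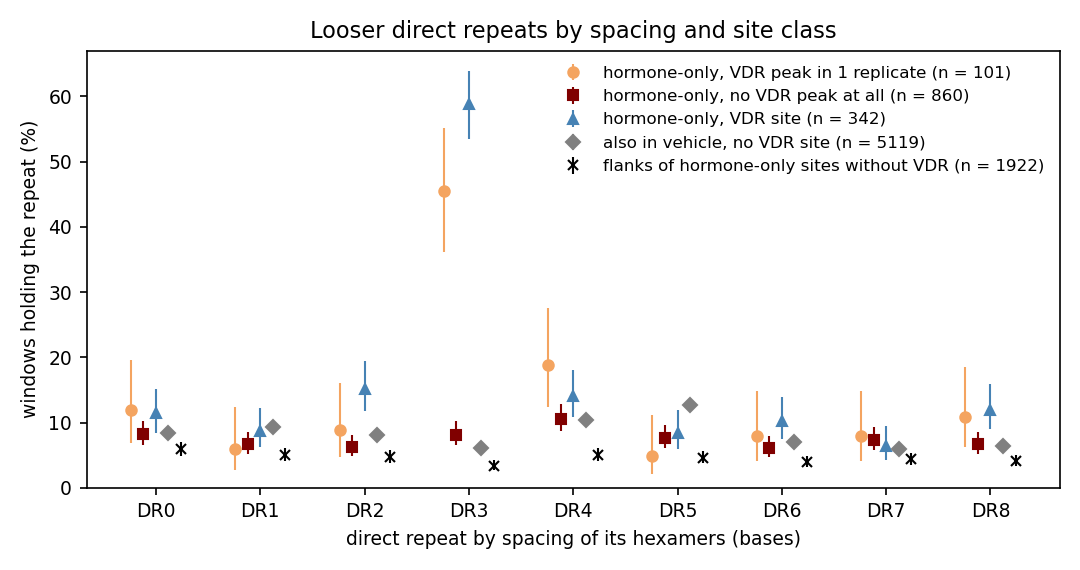
Share of 200 bp windows holding a looser direct repeat (y axis, percent with 95% Wilson intervals) by the spacing of its hexamers (x axis, DR0 to DR8), for hormone-only sites with a VDR peak in 1 replicate (orange), with no VDR peak (dark red), with VDR (blue), vehicle-called sites without VDR (grey) and the flanks of hormone-only sites without VDR (black). DR3 reaches 45.5% in orange and 58.8% in blue, against 8.14% in dark red, and DR5 is higher in grey than in dark red.

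At the DR5 spacing the sites differed from vehicle-called RXR sites in the opposite direction. The strict DR5, the element of retinoic acid receptors, was present at 3.75% of the sites (2.72 to 5.14), against 8.69% of vehicle-called sites without VDR, a difference of -4.95 points (-6.25 to -3.37), and 2.08% of flanks. Hormone-only sites with VDR had the strict DR5 at 4.68%, which differed from the sites without VDR by an interval that includes 0 (-0.932 points, -3.9 to 1.33). The looser DR5 gave 7.39%, against 12.7% of vehicle-called sites. The gap was narrower among weak sites: in the lower-scoring 50% the strict DR5 shares were 3.84% of the hormone-only sites without VDR and 5.93% of vehicle-called sites (-2.09 points, -3.58 to -0.368). The looser shares there were 7.67% and 9.25%, a difference whose interval includes 0 (-1.58 points, -3.58 to 0.656). The strict DR1 was present at 5.31% (4.06 to 6.91; 6.13% of all RXR sites), against 6.41% of vehicle-called sites and 3.23% of flanks, and 9.7% of the 134 sites left by hormone lists of vehicle length. DR4 was the most frequent strict repeat, at 7.18%, against 7.70% of vehicle-called sites and 2.24% of flanks. Strict repeats of any spacing from 0 to 8 were present at 29.3% of the sites, 42.7% of those with VDR and 33.8% of vehicle-called sites.

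The motifs of AP-1, RUNX, TEAD and C/EBP factors were each more common than a direct repeat of any single spacing. AP-1 (TGANTCA) was present at 32.5% of the sites (29.6 to 35.5; 35.7% of all RXR sites), against 25.1% of hormone-only sites with VDR, 36.9% of vehicle-called sites and 5.05% of flanks. RUNX (TGTGGT), the motif of the family of the osteoblast regulator Runx2, was present at 29.7%, against 29.2% of those with VDR, 33.2% of vehicle-called sites and 15.3% of flanks. TEAD (GGAATG) was at 22.0%, against 16.1% of those with VDR, 20.9% of vehicle-called sites and 11.2% of flanks. C/EBP (TTGCNNAA) was at 16.4%, against 13.5% of those with VDR, 15.4% of vehicle-called sites and 8.17% of flanks. The single hexamer AGGTCA, which overlaps the repeats, was at 28.2% and in 12.1% of flanks. The SP1, homeobox, forkhead, MEF2, CREB, glucocorticoid-type and NFI motifs were each at 9.37% of the sites or fewer, and NFI at 0%. AP-1 and RUNX occurred together at 90 sites (9.37%), against 6.43% of those with VDR and 11.2% of vehicle-called sites. None of AP-1, RUNX, TEAD, C/EBP or the single hexamer was present at 201 sites (20.9%). The share with none of them was 26.9% among those with VDR and 18.7% among vehicle-called sites. A match says only that these letters are in the window, and the base composition of the windows (48.9% GC) was above that of their flanks (44.9%).

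**Figure D5:**
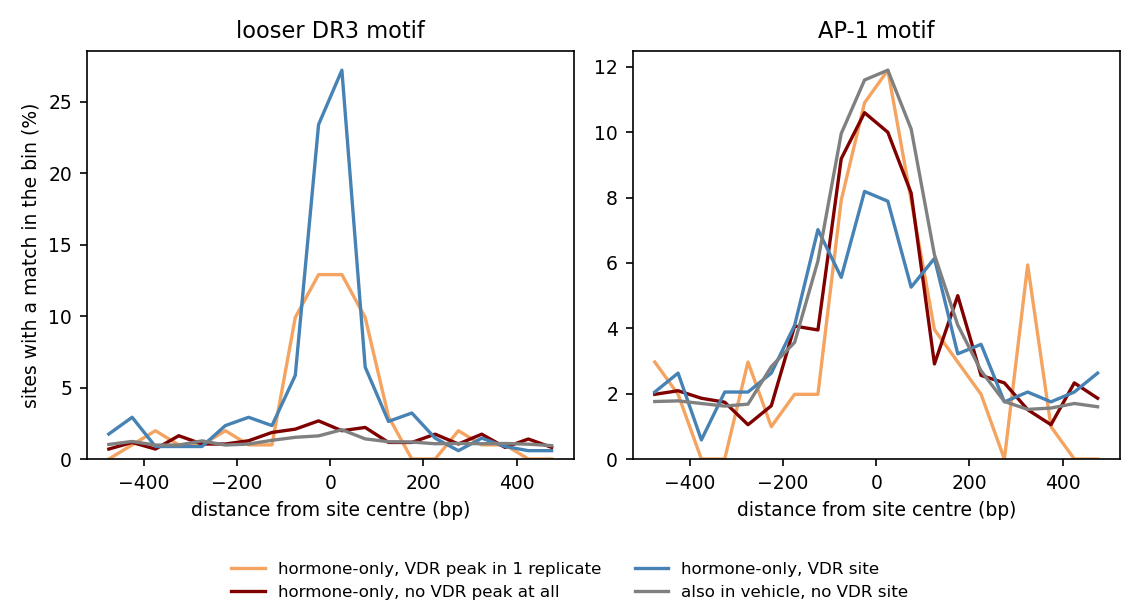
Share of sites with a looser DR3 (left) or an AP-1 motif (right) in each 50 bp bin (y axis, percent of sites) by distance from the site centre (x axis, bp), for hormone-only sites with a VDR peak in 1 replicate (orange), with no VDR peak (dark red), with VDR (blue) and vehicle-called sites without VDR (grey). AP-1 gathers at the centre in all 4 classes, whereas the looser DR3 has a central peak in blue and a lower one in orange.

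AP-1 gathered at the centre of the sites, and the looser DR3 did so mainly where VDR was called in at least 1 replicate. In the 50 bp bins on either side of the centre AP-1 was found at 10.6% and 10.2% of the 961 sites, against 2.08% and 1.66% in the outermost bins, 475 bp away. The looser DR3 was found in each central bin at 12.9% of the 101 sites with a VDR peak in 1 replicate, at 2.67% and 1.98% of the other 860, and at 23.4% and 27.2% of hormone-only sites with VDR.

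Most of the sites were away from promoters: 126 of 961 (13.1%, 11.1 to 15.4) had their centre no more than 1 kb from the transcription start (TSS) of a protein-coding gene, against 8.19% of hormone-only sites with VDR, 10.2% of vehicle-called sites and 10.6% of all RXR sites. Among the lower-scoring 50% of RXR sites the shares were 13.7%, 13.9% of those with VDR and 11.9% of vehicle-called sites, and the intervals of both differences include 0 (-0.212 points, -7.31 to 5.17, and 1.8 points, -0.71 to 4.52). The share was 5.97% of the 134 sites left by hormone lists of vehicle length. Introns held 39.4% of the sites, against 38% of those with VDR and 37.9% of vehicle-called sites. Intergenic sequence held 46.1%, against 51.8% and 50.6%. The median distance to a TSS was 26.4 kb (quartiles 6.55 and 75.9 kb), against 30.1 kb for all RXR sites. The 126 sites near a TSS differed in sequence from the other 835. SP1 (GGGCGG) was present at 36.5% of them and at 5.27% of the rest, and AP-1 at 7.94% and 36.2%. H3K4me3 covered 66.7% of the 126 at day 35 and 1.32% of the rest. Their windows were richer in GC (59.9% against 47.2%), and the part of base composition in the SP1 count was not tested.

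The best-ranked sites lay near genes of many kinds. The first was 122 kb from the TSS of Klf14, a Krüppel-like transcription factor (chr6:31030804-31031118, scores 14.8 and 14.7). It lay 0.828 kb from a vehicle peak and had no VDR peak. The second was 16.4 kb from Maml2, a Notch co-activator (chr9:13407910-13408224, 13.7 and 15.7), with a replicate 1 VDR peak of score 5.8. A pair of sites 155 and 73.2 kb from Irf2bp2, a transcriptional co-repressor, scored 15.7 and 11.5 (the farther) and 11.6 and 10.2 (the nearer). The farther of this pair held both the looser DR3 and the AP-1 motif printed above and a replicate 1 VDR peak of score 7.6.

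At promoters, the best-ranked site was at the TSS of Ilvbl (chr10:78037092-78037424, 13.2 and 12.9), and the site 0.764 kb from the TSS of Efcab2 (chr1:180336598-180336954, 9.8 and 14.0) carried the DR3 printed above. A site 86.7 kb from Klf9, a Krüppel-like factor known as a hormone-responsive gene, scored 13.2 and 10.8 and carried H3K27Ac in the day-35 library but not in that of day 3. A site 62.9 kb from the shared start of Col4a1 and Col4a2, which encode basement membrane collagen, scored 12.8 and 11.0 inside Col4a1. The sites nearest to Cx3cl1, the chemokine fractalkine (16.3 kb), and Cited2, a regulator of CBP and p300 (686 kb), carried H3K27Ac at both days.

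The rest of the first 20 lay nearest to Icos, Tmem40, Hace1, Casq1, Cyb5b, Gm17350, Orm1, Moxd1, N6amt1 and Tmem154. Of the 20, 13 were intergenic, 4 intronic, 2 within 1 kb of a TSS and 1 in a UTR. H3K27Ac covered 18 of them at day 35 and 17 at day 3; the site 211 kb from Hace1 overlapped no region of any of the 9 marks at either day. Single-replicate VDR peaks were at 7 of the 20, AP-1 at 5, RUNX at 6 and the looser DR3 at 3. Over all 961 sites the shares were 10.5% (single-replicate VDR), 32.5% (AP-1) and 12.1% (looser DR3). Over all RXR sites they were 4.14%, 35.7% and 11%. H3K27Ac covered 94.9% of the 961 at day 35 and 89.3% at day 3, against 95% and 90.3% of all RXR sites. Differences at 20 sites were not tested.

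Within 50 kb of the gene body, 1563 of 22225 protein-coding genes (7.03%) had a hormone-only site without VDR, and 7096 (31.9%) had any RXR site. Of the genes with any RXR site, 22% had one of these. Among 241 listed genes of bone, nuclear receptor and control pathways, 141 had an RXR site and 33 of those a hormone-only one without VDR (23.4%, 17.2 to 31.0), so the listed genes with RXR had them about as often as all genes with RXR. Of the 1563 genes, 1461 had a single site, 90 had 2 and 11 had 3.

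Among 23 vitamin D targets, 16 had any RXR site and 5 had a hormone-only one without VDR. Lrp5, a Wnt co-receptor, held one 0.683 kb from its TSS (chr19:3685724-3686038, RXR scores 6.8 and 6.4) with a strict DR3 and a replicate 1 VDR peak of score 8.5; a VDR site lay 18.3 kb away. Cdkn1a, a cell cycle inhibitor, had 2 sites, 12 and 38.3 kb from its TSS, with scores of 6.1 and 7.0 and of 8.7 and 7.0. The site counted for Bglap and Bglap2, the osteocalcin genes, was at the TSS of Pmf1 (6.6 and 6.8), and that for Enpp1, a pyrophosphate-producing enzyme, at the TSS of Ctgf (6.8 and 7.6). Apart from the Lrp5 site, these sites had no VDR peak in either replicate.

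Osteocyte genes had none: 0 of 14, of which 10 had an RXR site of another class within 50 kb. Over all genes with any RXR site 22% had one, and a difference at so few genes was not tested. Any RXR site lay near 11 of 18 osteoblast, 11 of 14 mineralization and 11 of 17 Wnt genes. Of 18 osteoblast genes 1 had a site (Bglap), of 14 mineralization genes 2 (Enpp1 and Mgp, an inhibitor of calcification, 12.3 kb from its TSS), and of 17 Wnt genes 3 (Lrp5, and the transcription factors Lef1 and Tcf7l2).

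Some nuclear receptor genes and receptor targets had a site. Any RXR site lay near 15 of 24 nuclear receptor genes, 8 of 10 retinoic acid targets, 9 of 12 LXR targets and 11 of 14 PPAR targets. Of all genes with any RXR site, 22% had a hormone-only one without VDR, and differences from that share were not tested. Of 24 nuclear receptor genes 3 had a site, all inside the gene: Rarb, a retinoic acid receptor (142 kb from its TSS, scores 5.9 and 6.6), Rora (137 kb, 8.9 and 7.2) and the oestrogen receptor gene Esr1 (6.12 kb, 10.5 and 7.4). Of 10 retinoic acid targets 4 had a site: Rarb, Cyp26a1, which degrades retinoic acid (8.16 kb, 7.7 and 5.5), Tgm2, a transglutaminase (10.0 kb, 8.2 and 7.0), and Rarres2, whose site was at the TSS of Repin1. None of these 4 sites held a strict direct repeat of spacing 0 to 8, and the Rarres2 site held a looser DR3. Of 12 LXR targets 1 had a site (Scd2, a fatty acid desaturase, 8.9 and 10.2) and of 14 PPAR targets 1 (Cpt1a, at the TSS of Ighmbp2).

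Signalling and matrix genes followed. Any RXR site lay near 13 of 15 AP-1 and immediate early genes, 8 of 18 TGF-beta and BMP genes and 14 of 18 matrix genes. Counts this small were not tested against the 22% of all genes with any RXR site. Of 15 AP-1 and immediate early genes 5 had a site (Fos, Jund, Atf3, Ier2 and Dusp6). Dusp6, a phosphatase of ERK, had 3, at 7.38, 25.9 and 45.8 kb from its TSS, with replicate 1 scores of 9.1, 8.9 and 8.9 and replicate 2 scores of 7.2, 10.2 and 7.0. Of 18 TGF-beta and BMP genes 4 had a site (Tgfbr1, Tgfbr3, Smad3 and Smad7), and Smad7, an inhibitor of the pathway, had 2, of which the one 0.975 kb from its TSS overlapped a replicate 2 VDR peak of score 11.9. Of 18 matrix genes 5 had a site: Col4a1, Col4a2, Col5a1, Col6a3 and Fn1. The Col5a1 site, 5.85 kb from the TSS, scored 11.6 and 9.3 and held AP-1.

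In lists of other cell types and of controls, Mcm2 of 16 proliferation genes, Comp of 9 chondrocyte genes and Kdr of 6 endothelial genes had a site, and 0 of 7 myogenic, 9 haematopoietic or osteoclast, 6 neural and 10 housekeeping genes did. Any RXR site lay within 50 kb of 7 of the 16 proliferation, 4 of the 10 housekeeping and 2 of the 6 neural genes. It did so for 2 of the 9 chondrocyte, 2 of the 9 haematopoietic or osteoclast, 1 of the 6 endothelial and 0 of the 7 myogenic genes. Of all protein-coding genes 31.9% had one. The only gene with 4 or more hormone-only sites without VDR was the gene model Gm20388, with 9 of its 68 RXR sites over 4434.9 kb. Besides Dusp6, 10 genes had 3 sites and are named here after their values were seen: 3930402G23Rik, Asap1, Cntrob, Eif4e3, Glis3, Mkl2, Myom1, Poc1b, Sh3rf3 and Tbc1d1. Members made up between 10.0% (chromosome 9) and 16.8% (chromosome 5) of the RXR sites of a chromosome, with intervals of 7.09 to 13.9% and 13.2 to 21.0%.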

How the data were processed

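Chromatin immunoprecipitation with sequencing gave 26 lists of called regions from 28 samples, and 2 samples without a list were not analysed here. Per the submitters' processing notes, Bowtie, HOMER and the mm9 build were named, their versions not given in the sources used here. Lists were deposited per library, with no pooling of replicates. The deposited score of a region is the authors' peak score, with no stated scaling, and read depth is unknown.

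Groups came from the sample labels. Peaks were joined by overlap of 1 bp, sites were placed on the NCBIM37 (mm9) genome and GENCODE genes (positions 1-based), and motifs were searched in 200 bp windows. Shares carry 95% Wilson intervals and differences Newcombe intervals, with no test, since sites of 1 library are not replicates. The sites, gene lists and motifs were chosen with earlier results of these data known. Named genes are those nearest to the 20 best-ranked sites, listed genes with a site within 50 kb, and genes with 4 or more sites; others (genes with 3 sites, at the edges of the rule, or beside a printed element) were named after their values were seen. Code was tested on simulated data. Python 3.11.15, numpy 2.4.6, pandas 2.3.3 and scipy 1.17.1 were used.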

Additional observations from a re-analysis of the deposited data

How the results depend on the processing

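Under 20 settings 127 values were recomputed, and 42 of them moved. The other 85 stayed within the counting interval of the reported share, 1 SD of the 2 replicate medians (percentile) or 1.5 times the reported count. The cause of each move was not tested beyond what a setting's construction shows. Limiting each hormone list to the length of its vehicle list left 134 sites near 214 genes, at median percentile 57.8; 25.4% had a VDR peak in 1 replicate, 5.97% lay near a TSS, 92.5% and 86.6% carried H3K27Ac at day 35 and day 3, 12.7% held DR3 and 9.7% DR1. The higher-scoring 50% of each list gave 525 sites near 765 genes, at percentile 66.6, with 8% (single-replicate VDR), 7.24% (TSS), 93.1% (H3K27Ac, day 35) and 10.9% (DR3). Counting vehicle consensus sites alone gave 2894 sites near 4021 genes, at percentile 37.9, with 5.29% (single-replicate VDR) and 37.2% (AP-1). Leaving out replicate 1 and replicate 2 gave 3370 and 3508 sites near 4591 and 4922 genes, with 94.4% and 92.8% (H3K27Ac, day 35), 89% and 86.6% (day 3), 5.16% and 4.85% (DR3) and 34.4% and 35.7% (AP-1).

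Motif windows of 100 and 400 bp gave 3.75% and 9.16% (DR3), 3.33% and 7.08% (DR1) and 18.4% and 41.8% (AP-1). At most 1 mismatch gave 0.624% and 1.14% (DR3, DR1), and the looser hexamer, added after the data had been seen, 12.1% (DR3). A TSS distance of 2.5 kb gave 17.5%, and gene windows of 10 and 100 kb gave 708 and 2524 genes. The replicate block, which set each hormone list against the vehicle list of its own number before merging, gave 963 sites and moved no value. Unknown depth and score scale limit all counts of sites, and 1 library per mark and day leaves the marks without a replicate check.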
